A study of Mus musculus with 10 samples.

Results

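Dystrophin and the proteins bound to it form a complex at the muscle cell membrane, and 8 of its genes were followed here: Dmd, Utrn, Dag1, Sgca, Sgcb, Sgcd, Sntb1 and Dtna. They were taken by gene symbol out of the 23337 genes of the deposited count tables, and all 8 were found under those symbols. Messenger RNA of the left ventricle (LV) and of skeletal muscle (SkM) was sequenced in 5 mice, 1 library per tissue and mouse, 10 libraries in all. Of the mice, 2 were WT and 3 were E0del/+, which carry on 1 allele a deletion of E0, a conserved stretch of the first intron of the titin gene Ttn. All 5 were hybrids of C57BL/6 and 129SvEv, bred from E0del/+ C57BL/6 parents and WT 129SvEv parents. The sources used here give no age, treatment or sex for the single mice and do not name the skeletal muscle. The deletion was inherited and so was present in every cell type, and the mice came from 1 of several lines made with such deletions. With 2 WT mice against 3, the comparison of genotypes had little replication.

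The complex spans the membrane of striated muscle cells. Dystrophin and its autosomal relative utrophin bind actin filaments inside the cell and the beta subunit of dystroglycan at the membrane; the alpha subunit, cut from the same Dag1 product, binds laminin, agrin and perlecan outside through sugars added by a chain of glycosyltransferases. Sarcoglycans stabilise dystroglycan in the membrane, and syntrophins and dystrobrevins join the complex from the cytoplasm and carry signalling proteins such as neuronal nitric oxide synthase. Loss of dystrophin causes Duchenne muscular dystrophy with cardiomyopathy, reduced or shortened dystrophin the milder Becker form, and loss of a sarcoglycan causes limb-girdle muscular dystrophy.

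Total gene counts were 11010021 in the smallest library, E0del/+ LV replicate 2, and 17484873 in the largest, WT SkM replicate 2. The labelled tissues were checked against their markers, given as CPM, the counts of a library scaled to a total of 1000000. The 7 ventricular markers, led by Myh6, summed to 65617 to 76766 CPM in 4 LV libraries and 58.7 to 295 CPM in the 5 SkM libraries. The 7 fast skeletal fibre markers, led by Myh4, summed to 104571 to 114981 CPM in SkM and 107 to 122 CPM in the same 4 LV libraries. The LV library left aside was WT LV replicate 2, in which the fast fibre markers summed to 26047 CPM, with Myh4 at 18473 CPM against 70.3 to 81.7 CPM in the other LV libraries, and the ventricular markers to 53817 CPM. That library was kept out of the comparisons below unless it is named, and its values are given apart.

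Other libraries also stood apart. In WT SkM replicate 2 and E0del/+ SkM replicate 3 the 3 slow fibre markers, led by Myh7, summed to 91.1 and 196 CPM, against 999 to 1849.7 CPM in the other 3 SkM libraries. WT mouse 2 and E0del/+ mouse 3 were also the low-Xist mice, with this X-linked RNA at 0.343 and 0.422 CPM in SkM against 278 to 397 CPM in the others. The Y-linked Ddx3y was at 94.1 and 108 CPM in the SkM of these 2 mice. WT SkM replicate 1 had Xist at 397 CPM together with Ddx3y at 12.5 CPM, which was 0.333 and 0.369 CPM in the remaining Xist-expressing SkM libraries. WT SkM replicate 2 had the lowest sums among SkM libraries for the 5 endothelial markers, led by Cdh5 (98.8 CPM against 167 to 208 CPM), and for the 5 fibroblast markers, led by Dcn (136 CPM against 184 to 476 CPM). The 4 adipocyte markers, led by Cfd, summed to 1008 and 7.55 CPM in WT SkM replicates 1 and 2 and to 249, 133 and 1021 CPM in E0del/+ SkM replicates 1, 2 and 3. In E0del/+ LV replicate 2 the endothelial sum was 1769 CPM against 1022 to 1276 CPM in the other 3 LV libraries compared.

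Ttn, whose first intron holds the deleted element, was counted over exons, so that its counts do not show the deletion itself. Ttn stood at 7959 CPM in WT LV replicate 1 and 7737, 5560.1 and 6597 CPM in E0del/+ LV replicates 1, 2 and 3, with 9344 CPM in WT LV replicate 2. In SkM Ttn stood at 24204 and 15856 CPM in WT and 20092, 18854 and 13585 CPM in E0del/+ replicates 1, 2 and 3. All E0del/+ LV libraries lay below both WT LV libraries in CPM, and the SkM groups overlapped. Divided by the TMM factors (1.23 in E0del/+ LV replicate 1 and 1.27 in WT LV replicate 1), Ttn was no longer lower in E0del/+ LV replicate 1 than in WT LV replicate 1. The genotype difference of Ttn was not called in LV (log2 fold change -0.25, SE 0.39, edgeR adjusted p = 1.00) or in SkM (log2 fold change -0.17, SE 0.24, edgeR adjusted p = 1.00).

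The tissues also differ in how much of a library a few genes take, so the scale matters for every fold change between them. From 27.2% to 29.5% of an SkM library, but 12.5% to 14.5% of an LV library, came from its 10 top genes. With TMM scaling, which sets the bulk of genes equal, the median log2 fold change of LV over SkM over the 13375 genes tested was 0.02; on total counts it was 0.67, a shift of 0.65. CPM values are on the second scale and the tested fold changes on the first, and genes whose direction depends on this choice are named as such. Relative to the median of all genes, Dmd stood at -0.88 on both scales and Utrn at 1.41.

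The 8 genes differ widely in size in the gene models of the deposited tables (mm10). Dmd, on chromosome X from 82948870 to 85205050, has 79 exons with 13852 bases, and Utrn, on chromosome 10 from 12382188 to 12861735, has 74 exons with 12382 bases. Dag1, on chromosome 9, has 4 exons. Among the sarcoglycans, Sgca on chromosome 11 has 11 exons within 13506 bases, Sgcb on chromosome 5 has 6, and Sgcd, also on chromosome 11, has 8 exons spread over 400520 bases. Sntb1 lies on chromosome 15 with 7 exons, and Dtna has 22. The antisense gene Gm47898 of GENCODE M21 overlaps Dtna exons, and since the library kit keeps no strand, its reads and those of Dtna cannot be told apart. Short Dmd transcripts start inside the gene, at 85048295. Beyond that start lie 17 of the exons counted, so the count of Dmd does not separate full-length from short transcripts.

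The 250 bases before 3 starts are shown. The Dmd starts were chosen because counted exons lie beyond each of them. Sgca was chosen as the gene of the 8 most tied to striated muscle. The sequences come from the RefSeq promoter table (GRCm38.p6), from which windows for 6 of the 8 genes were used. Capitals mark the E-box CANNTG, the core sequence bound by myogenic factors and other basic helix-loop-helix proteins, in the first and last window, and the GC box GGGCGG, read on either strand as GGGCGG or CCGCCC, in the middle one. The strand is plus for Dmd and minus for Sgca.
Dmd, full-length start, chrX:82948620-82948869: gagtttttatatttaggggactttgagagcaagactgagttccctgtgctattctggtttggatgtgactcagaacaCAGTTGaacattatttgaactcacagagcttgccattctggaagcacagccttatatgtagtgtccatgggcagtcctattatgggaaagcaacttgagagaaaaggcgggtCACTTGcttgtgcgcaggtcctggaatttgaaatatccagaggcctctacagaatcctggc
Dmd, inner start, chrX:85048045-85048294: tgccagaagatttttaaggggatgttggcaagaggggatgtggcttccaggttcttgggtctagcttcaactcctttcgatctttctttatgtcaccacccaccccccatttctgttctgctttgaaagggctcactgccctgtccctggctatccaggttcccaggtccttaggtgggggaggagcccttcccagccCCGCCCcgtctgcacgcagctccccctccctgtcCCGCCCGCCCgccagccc
Sgca, chr11:94976328-94976577: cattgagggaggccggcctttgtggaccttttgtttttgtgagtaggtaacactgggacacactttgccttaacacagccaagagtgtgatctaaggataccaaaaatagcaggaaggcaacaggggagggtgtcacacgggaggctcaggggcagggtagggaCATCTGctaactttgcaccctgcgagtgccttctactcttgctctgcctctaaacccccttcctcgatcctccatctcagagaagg
The full-length Dmd window held 2 E-boxes and no GC box, with a G and C content of 45.2%. The inner window held no E-box and 3 GC boxes, 2 of which overlap, at 60%, and the Sgca window held 1 E-box and no GC box. Of the 32851 windows in the table, 66.2% held an E-box and 32.7% a GC box, so these matches describe the letters only.

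Within a tissue, levels were compared per length as RPKM, the CPM divided by the exon length in kilobases (mean ± SD). In LV (n = 4, WT LV replicate 2 aside) the level of Sgca was 129.7 ± 12.6 RPKM, of Dag1 109 ± 31.8 RPKM and of Sgcb 53.9 ± 5.63 RPKM. These membrane components stood above Utrn at 16.3 ± 1.22 RPKM, Sgcd at 11.9 ± 2.60 RPKM, Dmd at 11.2 ± 1.66 RPKM, Dtna at 9.83 ± 1.39 RPKM and Sntb1 at 1.89 ± 0.534 RPKM. Among neighbours in this order, Sgca exceeded Dag1 in 3 of 4 libraries and Sgcd exceeded Dmd in 3 of 4, with mean log2 ratios of 0.31 and 0.06 that were smaller than their SDs of 0.54 and 0.11, whereas the other neighbours kept their order in each of the 4. In SkM (n = 5) the order began the same way, with Sgca at 148 ± 20.9 RPKM, Dag1 at 78.6 ± 20.2 RPKM and Sgcb at 47.6 ± 4.60 RPKM. Dtna came next at 18.6 ± 2.89 RPKM, then Sgcd at 14.9 ± 6.61 RPKM, Dmd at 12.3 ± 2.77 RPKM, Sntb1 at 5.19 ± 2.45 RPKM and Utrn at 3.36 ± 1.24 RPKM. Dtna exceeded Sgcd, and Sgcd exceeded Dmd, in 4 of 5 SkM libraries, with mean log2 ratios of 0.44 and 0.17 that were smaller than their SDs of 0.52 and 0.47. Utrn, the fourth of the 8 in LV, was thus the lowest in SkM in each of the 5 libraries. The mean log2 ratio of Sntb1 to Utrn in SkM was 0.53, with an SD of 0.49. In WT SkM replicate 2 they were nearly equal, with Sntb1 at 1.328 and Utrn at 1.326 RPKM.

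**Figure D1:**
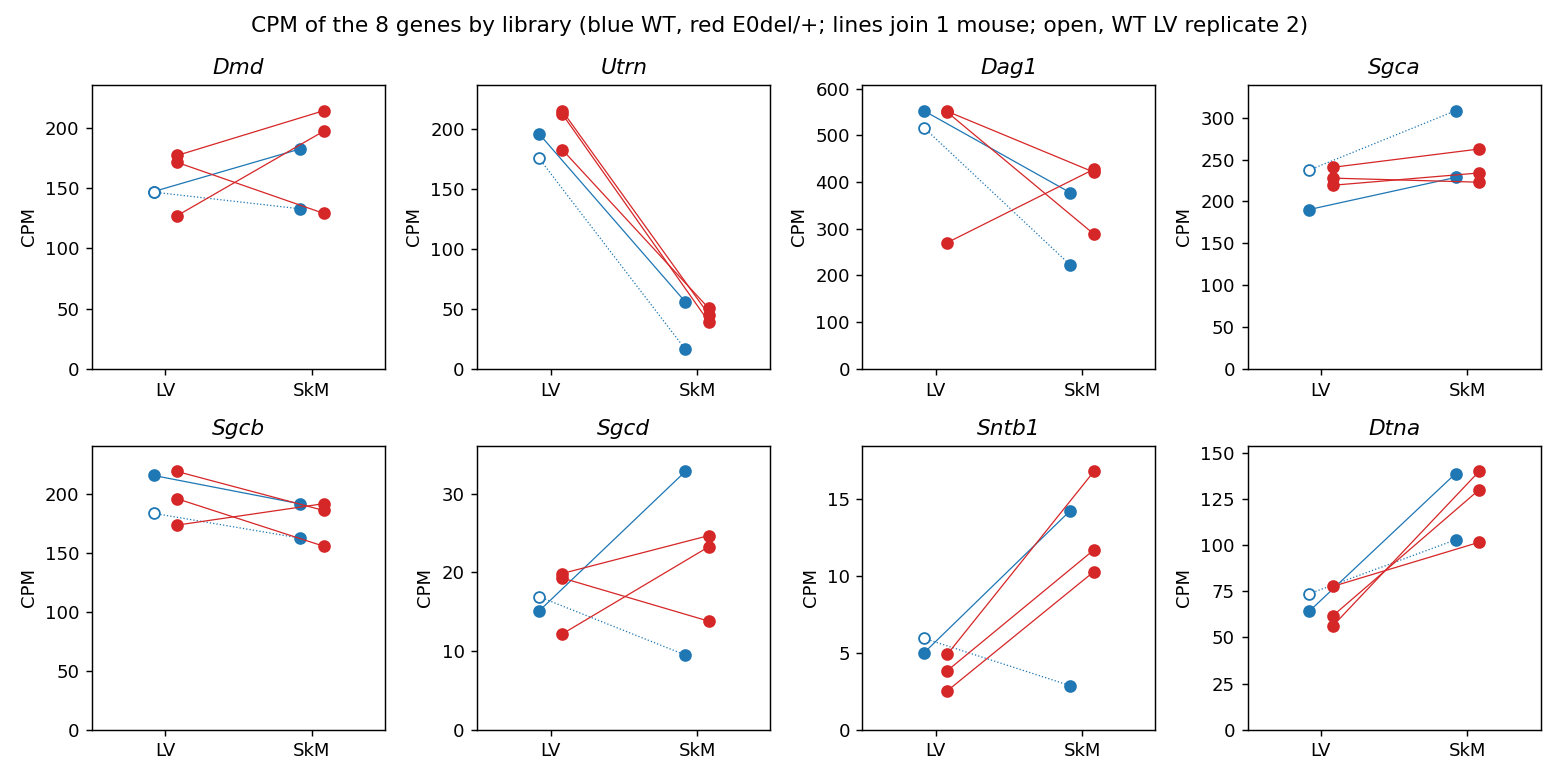
CPM of each of the 8 genes in every library, with LV and SkM of 1 mouse joined by a line, WT in blue and E0del/+ in red; the open circle is WT LV replicate 2. In CPM, Utrn was higher in LV and Dtna higher in SkM in all 5 mice.

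The first question was how the 2 tissues of a mouse differ. LV was compared with SkM in the 4 mice other than WT mouse 2, with the mouse as a block, using the quasi-likelihood test of edgeR, with p-values adjusted after Benjamini and Hochberg over all genes tested. Of the 8 genes, 1 was higher in LV at an adjusted p under 0.05, against 31.5% of all genes tested, and 6 were higher in SkM, against 29.8% of all genes. The median log2 fold change of the 8 was -0.81, and that of all genes 0.02. On total counts 1 of the 8 was higher in LV, against 57.4% of all genes, and 2 were higher in SkM, against 12.7%. Of all calls, 51.3% were higher in LV with TMM and 81.9% on total counts. The gene that kept its call as higher in LV on both scales was Utrn, and those that kept it as higher in SkM were Sntb1 and Dtna. With WT mouse 2 included 7 of the 8 were again called with TMM, 1 higher and 6 lower in LV. Of the 13283 genes tested in that fit, 4269 were higher and 3986 lower in LV. In bulk tissue, fewer cells of a type and less RNA per cell cannot be told apart, and this holds for every difference below.

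Dystrophin and utrophin, the actin-binding members, went in opposite directions with TMM. Dmd stood at 147 CPM in WT LV replicate 1 and 177, 127 and 171 CPM in E0del/+ LV replicates 1, 2 and 3. In SkM Dmd stood at 182 and 133 CPM in WT SkM replicates 1 and 2 and 214, 197 and 129 CPM in E0del/+ SkM replicates 1, 2 and 3. In CPM the tissues overlapped, with the 2 low-Xist mice lowest in SkM and E0del/+ LV replicate 2 lowest in LV. WT LV replicate 2 was at 147 CPM, so that in CPM the LV library of WT mouse 2 was the higher one (log2 difference 0.14). With TMM Dmd was lower in LV (fold of SkM over LV 1.81, log2 fold change -0.85, SE 0.21, edgeR adjusted p = 0.00937), and on total counts the difference was -0.20 and not called. Utrn, which can replace dystrophin in part when raised in dystrophic muscle, stood at 196 CPM in WT LV replicate 1 and 215, 213 and 183 CPM in E0del/+ LV replicates 1, 2 and 3. In SkM Utrn stood at 56.0 and 16.4 CPM in WT SkM replicates 1 and 2 and 45.4, 39.4 and 50.6 CPM in E0del/+ SkM replicates 1, 2 and 3, and in WT LV replicate 2 at 176 CPM. The tissues did not overlap, and the lowest SkM library was WT SkM replicate 2. Utrn was higher in LV by a fold of 2.70 with TMM (log2 fold change 1.43, SE 0.12, edgeR adjusted p = 4.85e-05) and of 4.24 on total counts, in each of the 4 mice.

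Utrophin is also made by endothelial cells, and markers of other cell types moved with this difference. The 5 endothelial markers, led by Cdh5, summed to 1022 to 1769 CPM in LV and 98.8 to 208 CPM in SkM, the 5 fibroblast markers, led by Dcn, to 837 to 1526 and 136 to 476 CPM, and the 5 smooth muscle and pericyte markers, led by Rgs5, to 471 to 812 and 68.8 to 201 CPM. Single libraries were 1276, 1167, 1769 and 1022 CPM for the endothelial sum in WT LV replicate 1 and E0del/+ LV replicates 1, 2 and 3. All 5 endothelial markers were detected in every library, and the part of these cells in the Utrn difference was not tested. Of the remaining lists, the 5 Schwann cell markers, led by Pmp22, summed to 63.9 to 93.9 CPM in LV and 29.0 to 151 CPM in SkM, the 4 adipocyte markers, led by Cfd, to 1.4 to 20.5 and 7.55 to 1021 CPM, and the 4 leukocyte markers, led over all libraries by Csf1r, to 51.3 to 73.1 and 7.26 to 93.6 CPM. The leukocyte markers differed, with Csf1r and Cd68 higher in LV and Cd3e higher in SkM. The highest SkM sum, in E0del/+ SkM replicate 1, came mostly from Ptprc at 80.1 CPM, with Csf1r at 4.68 CPM. The 4 regeneration markers, led by Myog, reached 0.538 CPM in LV and 25.3 CPM in SkM, and the 3 neuromuscular junction markers, led by Musk, 0.872 and 67.7 CPM. Of the 3 erythroid markers only Alas2 was detected, and Hbb-b1 and Hba-a1 were at 0 in all 10 libraries.

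Dystroglycan, the link to the matrix, showed no called difference. Dag1 stood at 552 CPM in WT LV replicate 1 and 551, 270.4 and 549 CPM in E0del/+ LV replicates 1, 2 and 3. In SkM Dag1 stood at 377 and 222 CPM in WT SkM replicates 1 and 2 and 421, 427 and 289 CPM in E0del/+ SkM replicates 1, 2 and 3. E0del/+ LV replicate 2 had about the level of the lowest SkM libraries, the other 3 LV libraries lay above all SkM libraries in CPM, and the low-Xist mice were again lowest in SkM. WT LV replicate 2, kept apart, was at 516 CPM. E0del/+ LV replicate 2 was also the LV library with the highest endothelial sum, and the part of this in its Dag1 level was not tested. With TMM the difference was not called (log2 fold change -0.34, SE 0.30, edgeR adjusted p = 0.367); its sign was negative with TMM, positive on total counts (0.31) and positive with TMM once E0del/+ mouse 2 was left out (0.06).

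**Figure D2:**
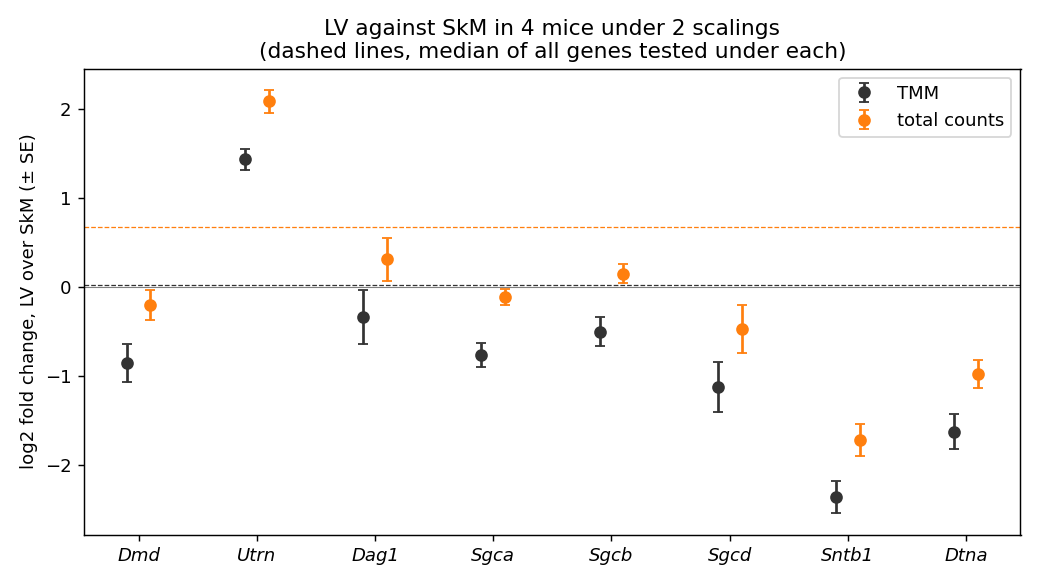
Log2 fold change of LV over SkM (± SE) of each gene in 4 mice, with TMM in black and on total counts in orange, and dashed lines at the median of all genes tested under each scale. The points of 1 gene differ by about the distance between the dashed lines; Utrn is above 0 and Sntb1 and Dtna below 0 on both, and Dag1 and Sgcb change sign.

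Of the sarcoglycans, Sgca, Sgcb and Sgcd were each called lower in LV with TMM, and none of them on total counts, where the sign of Sgcb was the opposite. Sgca, the alpha subunit made mainly in striated muscle, stood at 190.3 CPM in WT LV replicate 1 and 228, 219 and 241 CPM in E0del/+ LV replicates 1, 2 and 3. In SkM Sgca stood at 229 and 308 CPM in WT SkM replicates 1 and 2 and 223, 234 and 263 CPM in E0del/+ SkM replicates 1, 2 and 3. The tissues overlapped in CPM, with WT LV replicate 1 lowest and WT SkM replicate 2 highest. With TMM Sgca was lower in LV (fold of SkM over LV 1.70, log2 fold change -0.77, SE 0.13, edgeR adjusted p = 0.00169), and on total counts the difference was -0.11 and not called. Sgcb, the beta subunit, was 174 to 219 CPM in LV and 156 to 192 CPM in SkM, which overlap, and 184 CPM in WT LV replicate 2. With TMM Sgcb was lower in LV (log2 fold change -0.50, SE 0.16, edgeR adjusted p = 0.0305), on total counts its sign was the opposite (0.15, not called), and its call was lost without WT mouse 1 (-0.56) or without E0del/+ mouse 1 (-0.56), while without E0del/+ mouse 2 the value was -0.31. Sgcd, the delta subunit, stood at 15.1 CPM in WT LV replicate 1 and 19.9, 12.2 and 19.3 CPM in E0del/+ LV replicates 1, 2 and 3. In SkM Sgcd stood at 32.8 and 9.49 CPM in WT SkM replicates 1 and 2 and 24.7, 23.3 and 13.8 CPM in E0del/+ SkM replicates 1, 2 and 3. The SkM libraries of the low-Xist mice lay within the LV range or below it, and the other 3 above every LV library. WT LV replicate 2 was at 16.9 CPM, so that in CPM the LV library of WT mouse 2 was the higher one (log2 difference 0.83). With TMM Sgcd was lower in LV (log2 fold change -1.13, SE 0.28, edgeR adjusted p = 0.00912), and on total counts the difference was -0.48 and not called.

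The cytoplasmic members had the largest differences towards SkM. Sntb1, a syntrophin that carries signalling proteins, stood at 4.99 CPM in WT LV replicate 1 and 3.84, 4.90 and 2.53 CPM in E0del/+ LV replicates 1, 2 and 3. In SkM Sntb1 stood at 14.3 and 2.86 CPM in WT SkM replicates 1 and 2 and 11.7, 16.8 and 10.3 CPM in E0del/+ SkM replicates 1, 2 and 3, and in WT LV replicate 2 at 5.94 CPM. In the 4 mice tested every SkM library lay above every LV library, but WT SkM replicate 2 lay within the LV range, so that in WT mouse 2 the LV library was the higher one. Sntb1 was lower in LV with TMM (fold of SkM over LV 5.16, log2 fold change -2.37, SE 0.18, edgeR adjusted p = 2.87e-05) and on total counts (-1.72), and with WT mouse 2 included the TMM value was -1.89. Dtna, alpha-dystrobrevin, a relative of dystrophin that binds syntrophins, stood at 64.1 CPM in WT LV replicate 1 and 61.5, 56.0 and 77.6 CPM in E0del/+ LV replicates 1, 2 and 3. In SkM Dtna stood at 139 and 103 CPM in WT SkM replicates 1 and 2 and 129.9, 139.8 and 101 CPM in E0del/+ SkM replicates 1, 2 and 3. The tissues did not overlap in any of the libraries, with the low-Xist mice lowest in SkM and WT LV replicate 2 at 73.6 CPM. Dtna was lower in LV with TMM (fold of SkM over LV 3.09, log2 fold change -1.63, SE 0.20, edgeR adjusted p = 2.81e-04) and on total counts (-0.98). In CPM, Dmd, Dag1, Sgcb, Sgcd, Sntb1 and Dtna were lowest in the same 2 SkM libraries as the slow fibre sum. With TMM scaling this did not hold for Sgcb. Its CPM was then 226 in WT SkM replicate 2, against 216 in WT SkM replicate 1 and 218 in E0del/+ SkM replicate 1. The part of the slow fibre sum in the spread of these genes was not tested.

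Ratios of related genes within a library do not depend on scaling between libraries. The RPKM ratio of Utrn to Dmd was 1.49 in WT LV replicate 1 and 1.36, 1.87 and 1.20 in E0del/+ LV replicates 1, 2 and 3. In SkM it was 0.343 and 0.138 in WT SkM replicates 1 and 2 and 0.237, 0.224 and 0.439 in E0del/+ SkM replicates 1, 2 and 3. All LV libraries had more Utrn than Dmd per length and all SkM libraries less. Over the 4 mice the ratio was higher in LV by a fold of 4.89 (log2 difference 2.29 ± 0.68 SD), in 4 of 4 mice, with an exact two-sided sign permutation p of 0.13, the smallest that 4 mice can give, and 0.208 after adjustment over the 5 ratios computed. In WT mouse 2 the ratio was 1.34 in LV.

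Sgce, the epsilon-sarcoglycan of many cell types, can take the place of alpha-sarcoglycan, and the Sgce to Sgca ratio was 0.0308 to 0.0645 in LV and 0.00469 to 0.0162 in SkM. It was higher in LV in 4 of 4 mice (log2 difference 1.99 ± 0.69 SD, exact permutation p = 0.13). Sgca thus exceeded Sgce in every library. The ratio of Dtnb, beta-dystrobrevin, to Dtna was 0.131 to 0.359 in LV and 0.0142 to 0.241 in SkM, and was higher in LV in 3 of 4 mice (log2 difference 2.07 ± 2.04 SD, exact permutation p = 0.25). The tissues overlapped, and E0del/+ mouse 3 was the exception. Without E0del/+ mouse 3 the log2 difference was 2.76, and without E0del/+ mouse 2 it was 1.20.

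**Figure D3:**
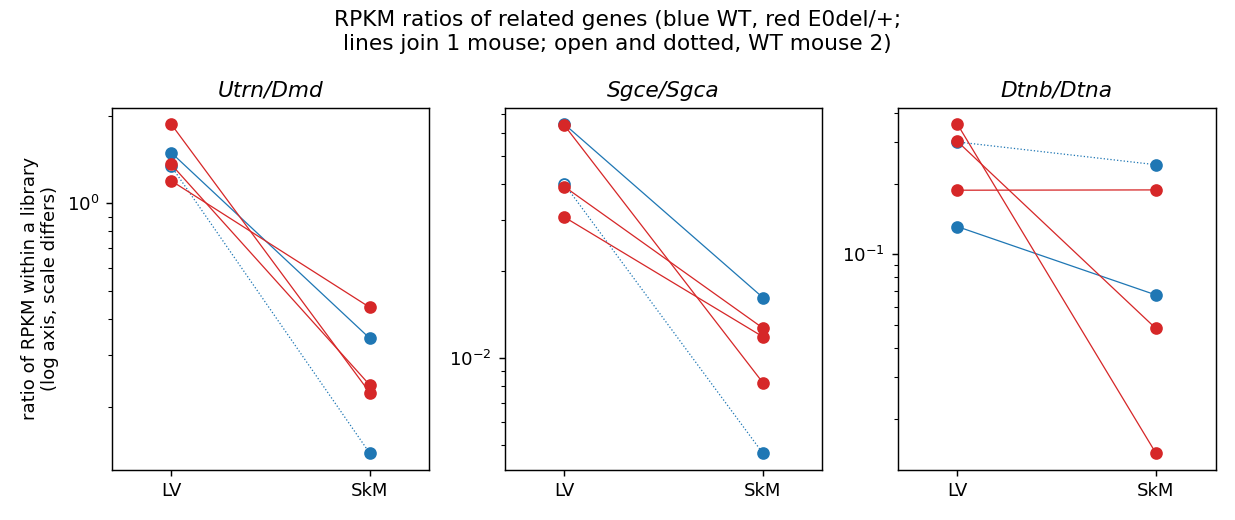
Ratios of RPKM of 3 pairs of related genes in each library on log axes, with LV and SkM of 1 mouse joined; the open circle and dotted line are WT mouse 2. The lines of Utrn/Dmd and Sgce/Sgca fall from LV to SkM in every mouse, and that of Dtnb/Dtna in E0del/+ mouse 3 is nearly level.

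Of the 12 other genes of the complex listed, 9 passed the filter on low counts, and Sgcz, Sntg1 and Sntg2 did not. With TMM 3 were higher and 4 lower in LV, and on total counts 4 and 3. Of all genes tested, 31.5% were higher and 29.8% lower in LV with TMM, and 57.4% and 12.7% on total counts. Their median log2 fold change was -0.14 with TMM and 0.52 on total counts. Sarcospan, Sspn, was 197 to 279 CPM in LV and 75.0 to 89.5 CPM in SkM, and higher in LV on both scales (log2 fold change 0.85, SE 0.17, edgeR adjusted p = 0.00379). Caveolin-3, Cav3, was 41.8 to 55.7 CPM in LV and 34.9 to 54.7 CPM in SkM, called as lower in LV with TMM (log2 fold change -0.36, SE 0.12, edgeR adjusted p = 0.0327) and of the opposite sign on total counts (0.29, not called). Without WT mouse 1 or E0del/+ mouse 3 the TMM call of Cav3 was lost (-0.37 and -0.26). Sgce was higher in LV on both scales (log2 fold change 1.21, SE 0.24, edgeR adjusted p = 0.00312), and Dtnb, at 3.38 to 8.08 CPM in LV and 0.80 to 9.95 CPM in SkM, was not called on either (log2 fold change 0.33, SE 0.54, edgeR adjusted p = 0.618) and was -0.23 without E0del/+ mouse 2. With at least 10 counts required in every library, 7 of the 12 were tested, of which 3 were higher and 1 lower in LV (all genes 3713 higher and 3448 lower of 11383), and their median was 0.36. That filter itself removes genes with few counts in LV, such as Nos1, described next. The median of 0.36 is thus not comparable with the -0.14 above.

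Nos1, the neuronal nitric oxide synthase gene, which was chosen after its values were seen, encodes a partner of the syntrophins. It stood at 64.5 and 42.7 CPM in WT SkM replicates 1 and 2 and at 84.5, 81.9 and 53.4 CPM in the E0del/+ SkM libraries. In LV it had 2 counts in WT LV replicate 1 and 1, 0 and 6 counts in E0del/+ LV replicates 1, 2 and 3. WT LV replicate 2, with its skeletal fibre markers, had 158 counts, or 14.2 CPM.

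Of the 7 genes for matrix proteins that dystroglycan binds, or for single chains of them, 6 were higher and 1 was lower in LV with TMM. Of all genes tested, 31.5% were higher and 29.8% lower. On total counts 6 were higher and 0 lower, beside 57.4% and 12.7% of all genes. Their median log2 fold change was 2.06 with TMM, where that of all genes was 0.02. Lamb2, the laminin beta-2 chain, was 991 to 1100.2 CPM in LV and 173 to 349.8 CPM in SkM (log2 fold change 1.20, SE 0.20, edgeR adjusted p = 0.00134), and Lamc1, the gamma-1 chain, was 301 to 409.8 CPM and 93.9 to 119 CPM (log2 fold change 1.01, SE 0.14, edgeR adjusted p = 5.57e-04). Perlecan, Hspg2, was 1608 to 2328 CPM and 225 to 346 CPM (log2 fold change 2.06, SE 0.16, edgeR adjusted p = 2.79e-05), and agrin, Agrn, was 182 to 326 CPM and 19.5 to 41.5 CPM (log2 fold change 2.38, SE 0.17, edgeR adjusted p = 1.93e-05). Each of these 4 was higher in LV on both scales. The endothelial, fibroblast and pericyte marker sums given above were higher in LV as well, and their part in these values was not tested.

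The 17 genes that glycosylate dystroglycan, all tested, went both ways, with 5 higher and 8 lower in LV with TMM, beside 31.5% and 29.8% of all genes. On total counts 8 were higher and 3 lower, beside 57.4% and 12.7% of all genes. The medians of the 17 were -0.28 with TMM and 0.37 on total counts. B3galnt2, which builds the core sugar of the laminin-binding chain, was 35.1 to 42.3 CPM in LV and 168 to 232 CPM in SkM, lower in LV on both scales (log2 fold change -3.03, SE 0.20, edgeR adjusted p = 1.41e-05). Pomgnt1 was 81.6 to 93.6 CPM and 84.3 to 95.4 CPM, which overlap; it was called lower in LV with TMM (log2 fold change -0.68, SE 0.14, edgeR adjusted p = 0.00441), and not called on total counts (-0.03). With TMM 1 of the 17 was called higher and 6 lower without WT mouse 1 (all genes 3567 higher and 3402 lower of 13432), 1 and 6 without E0del/+ mouse 1 (all genes 3564 higher and 3331 lower of 13364), 5 and 7 without E0del/+ mouse 2 (all genes 4015 higher and 3916 lower of 13436), and 3 and 6 without E0del/+ mouse 3 (all genes 3874 higher and 3636 lower of 13577).

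Of the 10 genes of membrane repair and the linked cytoskeleton, 1 was higher and 5 were lower in LV with TMM, beside 31.5% and 29.8% of all genes. On total counts 5 of the 10 were higher and 4 lower, beside 57.4% and 12.7% of all genes. The medians of the 10 were -0.46 with TMM and 0.20 on total counts. Plec, the cytoskeletal linker plectin, was 893 to 1102 CPM in LV and 1487 to 1889.8 CPM in SkM, lower in LV on both scales (log2 fold change -1.50, SE 0.19, edgeR adjusted p = 3.76e-04). Anxa6, an annexin, was 318 to 356 CPM and 296 to 363 CPM, called lower in LV with TMM (log2 fold change -0.57, SE 0.15, edgeR adjusted p = 0.0120) and of the opposite sign on total counts (0.08, not called). Its TMM call was lost without E0del/+ mouse 3 (-0.52). Trim72, which seals membrane wounds, was 333 to 483 CPM and 191 to 209 CPM; it was not called with TMM (log2 fold change 0.28, SE 0.17, edgeR adjusted p = 0.188) but was called higher in LV on total counts (0.93) and with TMM without E0del/+ mouse 2 (0.46). Anxa2 was 55.3 to 114 CPM and 12.8 to 47.6 CPM, not called with TMM (log2 fold change 0.79, SE 0.34, edgeR adjusted p = 0.0747). Anxa2 was called higher in LV on total counts (1.43), with WT mouse 2 included (1.01) and without E0del/+ mouse 3 (1.18). It was not called without E0del/+ mouse 1 (0.66), E0del/+ mouse 2 (0.41) or WT mouse 1 (0.89). Over the 5 SkM libraries Anxa2 had the same order as the adipocyte sum, with E0del/+ SkM replicate 3 highest (47.6 CPM) and WT SkM replicate 2 lowest (12.8 CPM), and the part of adipocytes in its values was not tested. Of the 10, 2 were called higher and 5 lower without E0del/+ mouse 2, 3 and 4 without E0del/+ mouse 3, and 2 and 6 with WT mouse 2 included (all genes 4269 higher and 3986 lower of 13283); the counts of all genes without these E0del/+ mice are given above. Without WT mouse 1 or E0del/+ mouse 1 they were 1 and 5 in both fits.

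**Figure D4:**
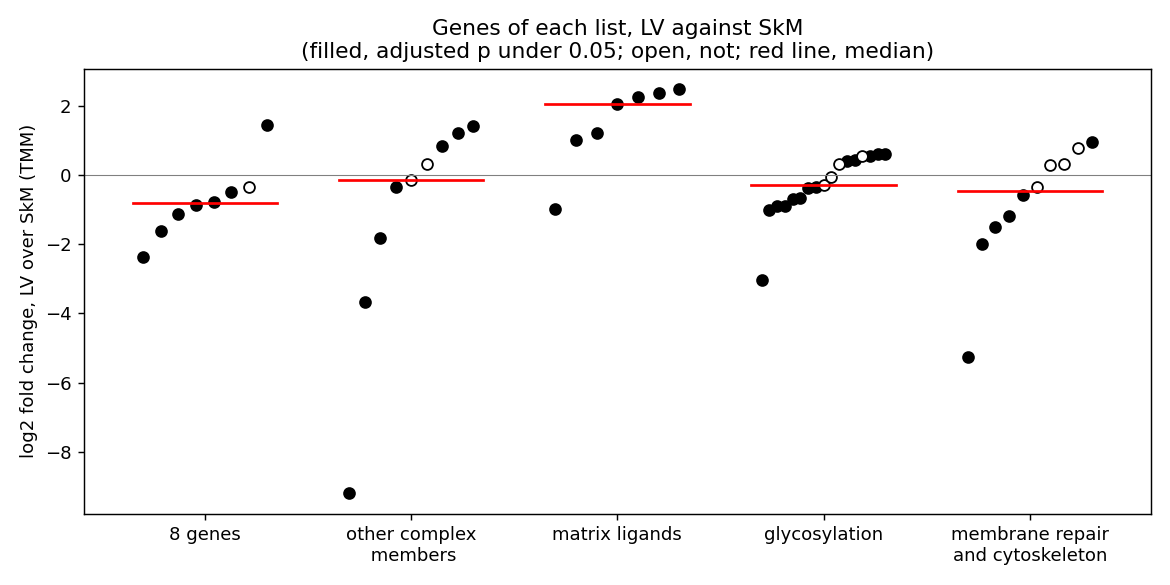
Log2 fold change of LV over SkM with TMM for each tested gene of the 5 lists, filled where the edgeR adjusted p was under 0.05; red lines are list medians. The matrix ligands lie above 0 except for 1 gene, and the lowest point is Nos1; on total counts all points would lie about 0.65 higher, so that those a little under 0 would change sign.

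The genes whose values ran most like each of the 8 over 9 libraries (WT LV replicate 2 aside) were found by Euclidean distance of centred log2(CPM + 0.5), among 8612 genes with a mean of at least 10 CPM. For Dmd they were Ktn1 (distance 0.292) and Cpeb2 (0.301), and for Utrn Amotl2 (distance 0.439) and Arhgef40 (0.459). For Dag1 they were Fyco1 (distance 0.404) and Tbc1d16 (0.464). Among the sarcoglycans, Sgca lay nearest to Adrm1 (distance 0.203) and G6pc3 (0.237) and Sgcb to Smcr7l (distance 0.131) and Bpnt1 (0.189). Sgcd lay nearest to 1700020I14Rik (distance 0.484) and Bmpr2 (0.648), Sntb1 to Cilp (distance 1.03) and Adamtsl1 (1.23) and Dtna to Spast (distance 0.293) and Dcun1d1 (0.307). The distances of Sntb1 were the largest of the 8, and none of the nearest genes was a member of the complex. Some members, such as Sgce and Dtnb, had a mean under 10 CPM and could not be found in this way.

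The next question was whether loss of E0 on 1 Ttn allele changes these genes. In LV, with 3 E0del/+ libraries against WT LV replicate 1, which was assumed to vary like the E0del/+ libraries, 0 of the 8 genes passed an adjusted p under 0.05, against 0% of the 13890 genes tested, and none of the 8 had an unadjusted p under 0.05 by edgeR or DESeq2. By edgeR 0 genes were called in all and 104 had an unadjusted p under 0.05; DESeq2 also called 0, with 75 at an unadjusted p under 0.05. Without E0del/+ LV replicate 2, 2 of the 8 had an unadjusted p under 0.05 by edgeR, beside 488 of 13650 genes. The value furthest from 0 among the 8 was that of Sntb1 (log2 fold change -0.42, SE 0.40, edgeR adjusted p = 1.00); without E0del/+ LV replicate 3 it was -0.25, and that of Dag1, -0.45, was the furthest. In CPM the WT value of Sntb1, 4.99, lay above the E0del/+ values of 3.84, 4.90 and 2.53, and close to the 4.90 of E0del/+ LV replicate 2. Sgca was higher in each E0del/+ LV library than in WT LV replicate 1 (log2 fold change 0.28, SE 0.27, edgeR adjusted p = 1.00), but WT LV replicate 2, at 237 CPM, lay within the E0del/+ range. The log2 fold changes of the other 6 ran from -0.24 for Dag1 to 0.21 for Sgcd, and the Dag1 value rested on E0del/+ LV replicate 2, being 0.06 without it. Exact permutation of the labels on log2 CPM, which cannot go below p = 0.25 with 1 library against 3, gave a p from 0.25 to 1.

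With WT LV replicate 2 added to the WT group, edgeR again called 0 genes, with 564 at an unadjusted p under 0.05, and the Sntb1 value was -0.63. With that library and the replicate number, which is the batch of the labels, as a block, 5 genes were called. With it in place of WT LV replicate 1, 578 were called, 574 of them lower in E0del/+. None of the 8 genes was called in any of these fits. Leaving out E0del/+ LV replicate 1, 2 or 3 led to 4, 4 and 3 called genes, again with 0 of the 8. Within batch 1, the log2 difference of E0del/+ from WT in CPM ran from -0.38 for Sntb1 to 0.40 for Sgcd; the WT library of batch 2 was WT LV replicate 2, and batch 3 had none.

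In SkM, with 3 E0del/+ libraries against 2 WT, edgeR called 0 of the 8 genes, against 0% of the 13154 tested, and 114 genes had an unadjusted p under 0.05; DESeq2 called 0 genes, with 151 at an unadjusted p under 0.05. None of the 8 had an unadjusted p under 0.05 by either tool. By edgeR 4 of the 8 had one without WT SkM replicate 1, beside 1596 of 13510 genes, and 1 with the replicate block, beside 596 of 13154. The values furthest from 0 were those of Sntb1 (log2 fold change 0.69, SE 0.61, edgeR adjusted p = 1.00), Utrn (log2 fold change 0.39, SE 0.43, edgeR adjusted p = 1.00) and Dag1 (log2 fold change 0.37, SE 0.25, edgeR adjusted p = 1.00). Each of these genes was lowest in WT SkM replicate 2, while WT SkM replicate 1 lay within or above the range of the E0del/+ libraries. Without WT SkM replicate 2 the values were 0.00 for Sntb1, -0.18 for Utrn and 0.14 for Dag1, and that of Sgcd went from 0.03 to -0.54. Without WT SkM replicate 1 they were 2.06, 1.34, 0.65 and, for Sgcd, 0.99. The signs of Sntb1 and Utrn were not the same in both batches. The log2 difference in CPM was -0.29 in batch 1 and 2.55 in batch 2 for Sntb1, -0.30 and 1.26 for Utrn, and -0.41 and 1.29 for Sgcd. Dag1 kept its sign in both, at 0.16 and 0.94, as did Dmd, at 0.23 and 0.57. Sgca also kept its sign, in the other direction, at -0.04 and -0.40. Batch 3 had no WT library. Exact permutation, which cannot go below p = 0.1 here, gave p from 0.40 to 0.90. With the replicate block 1 gene was called, and 0 of the 8.

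The other lists gave no call for genotype either, with 0 of the other complex genes (of the 12, 8 were tested in LV and 9 in SkM), 0 of the 7 matrix ligands, 0 of the 17 glycosylation genes and 0 of the 10 repair and cytoskeleton genes called by edgeR or by DESeq2 in LV or in SkM. At an unadjusted p under 0.05 by edgeR there was 1 gene in LV, Dtnb (log2 fold change 1.07, SE 0.35, edgeR adjusted p = 1.00), which was at 3.38 CPM in WT LV replicate 1 and 8.91 CPM in WT LV replicate 2 against 7.49, 8.08 and 5.84 CPM in E0del/+ LV replicates 1, 2 and 3. In SkM there were 0. With the replicate block 3 of the 9 other complex genes had one in SkM, beside 596 of 13154 genes. Without E0del/+ SkM replicate 3 it was also 3 of 9, beside 291 of 13055 genes. With WT LV replicate 2 as the only WT library, genes of the complex, glycosylation and repair lists were among those called lower in E0del/+ LV. In that library the fast skeletal fibre markers summed to 26047 CPM, against at most 122 CPM in the other LV libraries compared. Nos1 and Capn3 of these lists were at 14.2 and 48.0 CPM there, against at most 0.523 and 10.6 CPM. The part of skeletal muscle RNA in these calls was not tested. The median log2 fold changes of the 4 lists in LV were 0.04, -0.17, -0.02 and -0.03, beside 0.05 for the 8 genes. In SkM they were -0.12, -0.01, -0.07 and 0.14, beside 0.13. The LV and SkM comparisons used the same mice.

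Whether the genotype difference itself differed between tissues was tested as an interaction over the 4 mice. The WT side of this test was WT mouse 1 alone, which was assumed to vary like the 3 E0del/+ mice. EdgeR called 0 of the 8 genes, against 0% of the 14793 tested, and 161 genes had an unadjusted p under 0.05; DESeq2, added after the data were seen, called 2 genes, with 101 at an unadjusted p under 0.05. None of the 8 had an unadjusted p under 0.05 by either tool. The interaction values of the 8 ran from -0.53 for Dag1 to 0.66 for Sgcd. Without E0del/+ mouse 3 edgeR called 77 genes.

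**Figure D5:**
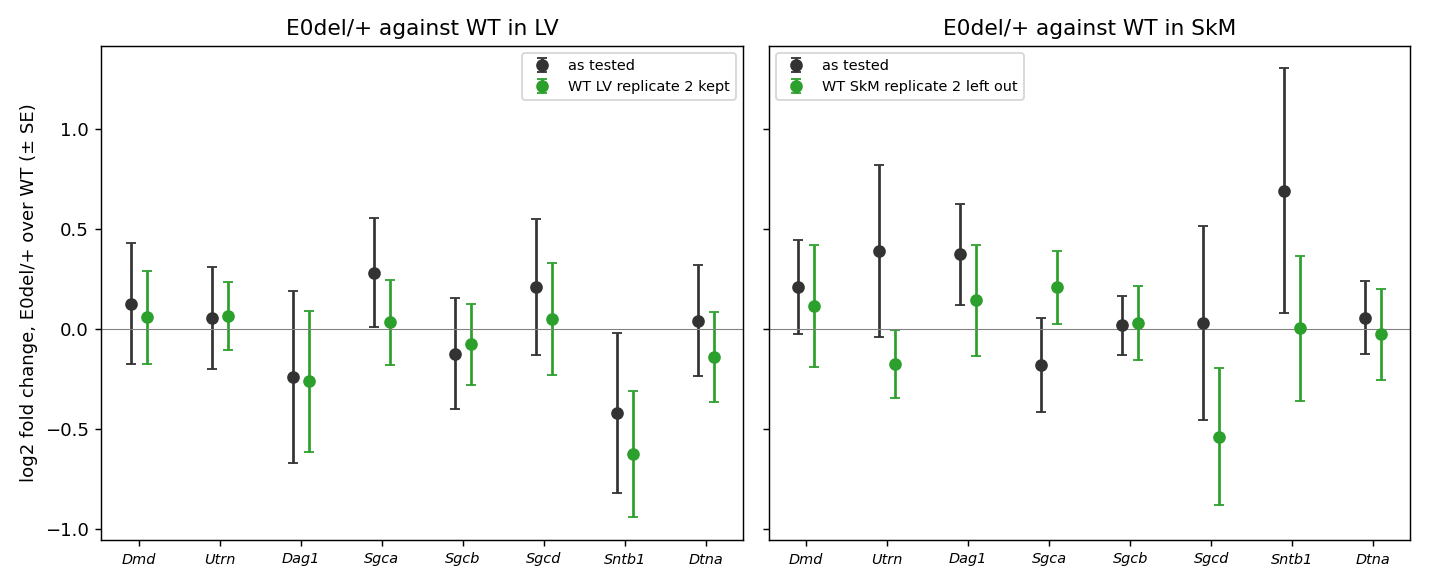
Log2 fold change of E0del/+ over WT (± SE) of each gene in LV (left) and SkM (right), as tested in black and, in green, with WT LV replicate 2 kept or WT SkM replicate 2 left out. No value was called in either tissue; in SkM the values of Utrn, Sgca, Sgcd and Dtna change sign without WT SkM replicate 2, and in LV that of Dtna does once WT LV replicate 2 is kept.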

How the data were processed

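The authors extracted RNA with TRIzol, selected poly(A) RNA in repeated rounds, made cDNA and built Nextera XT libraries, which keep no strand. The authors' deposited tables hold, per library, whole counts per gene and RPKM values that equal counts divided by gene length and by the library's total. The submitters' processing notes name mm10, STAR and DESeq2 with no version; the counter and annotation are not given in the sources used here.

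CPM values were computed from the deposited counts and the total of all genes. Counts were tested with edgeR 4.0.16 (quasi-likelihood, TMM, filterByExpr, Benjamini-Hochberg over all genes tested, adjusted p under 0.05) in R 4.3.3, and with DESeq2 1.42.0 as an alternative; the fits were tested on simulated data. Ratios and single values were tested by exact two-sided permutation. Alternatives covered scaling, filters, tools, blocks and leaving out each mouse. No 2 libraries were identical, the highest share of equal counts among genes with at least 50 counts being 0.837%.

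LV and SkM were paired by mouse, from the library names. Deviations from the group means correlated little across genes between the tissues of a mouse. The values were 0.005, -0.10 and 0.09 in E0del/+ mice 1, 2 and 3. Both WT mice share the value 0.09, which uses WT LV replicate 2. Replicate numbers equal the batch in the labels and so pair WT with E0del/+. Across genes, the deviations of paired LV libraries correlated at 0.03 for batch 1 and -0.12 for batch 2. For paired SkM libraries the values were 0.52 and 0.31. With 2 WT libraries per tissue, the WT deviations mirror each other, so the values of the 2 batches are not separate checks of this pairing. Both LV values use WT LV replicate 2. What was shared within a batch is not stated. The 8 genes and the lists were chosen with earlier results of these data known. Beyond the 8, the text names the 4 genes of each list with the highest mean RPKM, the genes of the ratios and the 2 nearest genes of each member, apart from some genes and their ratios that are not reported here; Nos1, Capn3 and Dpm2 were named after their values were seen. Pomgnt2 and Pomk were matched under older symbols through RefSeq synonyms.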

Additional observations from a re-analysis of the deposited data

Results flagged for a closer look

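WT LV replicate 2, which entered no main comparison, held signal of skeletal muscle above that of the other LV libraries. Its 7 fast skeletal fibre markers summed to 26047 CPM, against at most 122 CPM in the other 4 LV libraries. Nos1 was at 14.2 CPM there against at most 0.523 CPM in those libraries, and Capn3, a muscle protease gene, at 48.0 CPM against at most 10.6 CPM.

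For 3 genes, every sample of one group moved one way and every sample of the other the opposite way on TMM-scaled values; these sign patterns were not tested. The edgeR interaction values given beside them come from 4 mice with WT mouse 1 as the only WT mouse, take their spread from the E0del/+ mice, and do not show that the patterns are absent. Sgca was higher in each E0del/+ LV library than in WT LV replicate 1 and lower in each E0del/+ SkM library than the WT SkM mean, a difference between tissues of 0.45 on the log2 scale; the edgeR interaction was -0.01 (adjusted p = 1.00). The SkM side of Sgca rests on WT SkM replicate 2, at 428 TMM-scaled CPM, since the E0del/+ SkM values (261, 300.1 and 329) lay above WT SkM replicate 1 (258), and the edgeR value in SkM was -0.18 with WT SkM replicate 2 and 0.21 without it. WT LV replicate 2 (205) lay within the E0del/+ LV range. Sntb1 was lower in each E0del/+ LV library and higher in each E0del/+ SkM library, a difference of -1.42, where the WT SkM mean includes WT SkM replicate 2 at 2.86 CPM, and 2 of the 3 E0del/+ SkM libraries lay below WT SkM replicate 1; its edgeR interaction was -0.50 (adjusted p = 1.00). Dpm2, a subunit of the enzyme that makes the mannose donor, was higher in LV than SkM in the 3 E0del/+ mice and lower in both WT mice, WT mouse 2 included, on TMM-scaled values only, by -0.02 and -0.05 on the log2 scale in the WT mice, a difference between genotypes of 0.53. The Dpm2 interaction by edgeR was 0.45 (adjusted p = 1.00). In CPM Dpm2 was higher in LV in all 5 mice, at 11.1 against 7.99 CPM in WT mouse 1 and 9.81 against 6.18 CPM in WT mouse 2.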

How the results depend on the processing

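For LV against SkM, 80 of 88 values of the 8 genes under 11 alternatives kept their direction and their side of the threshold. On total counts 3 of the 8 were called in place of 7, Dag1 was 0.31 and Sgcb 0.15, both with the sign turned, and Dmd (-0.20), Sgca (-0.11) and Sgcd (-0.48) lost their calls; the scale moves every gene alike. Leaving out 1 mouse gave 6895 to 7931 genes called, 6 to 7 of the 8 called, Dag1 at -0.57 to 0.0622 and Sgcb at -0.58 to -0.31. Without the pairing by mouse (no replicate block) 8628 genes were called, and no call among the 8 changed. For genotype none of the 8 genes was called under any of 12 alternatives in either tissue, of which Xist as a block in LV is no separate one: E0del/+ LV replicate 3 is there the only low-Xist library, and the block repeats the fit without it. In LV the count of called genes went from 0 to 5 with the replicate block and WT LV replicate 2 kept (batch 3 has no WT library, so that E0del/+ LV replicate 3 adds nothing to the difference), to 578 with WT LV replicate 2 in place of WT LV replicate 1, and 3 to 4 without 1 E0del/+ library; the cause was not tested. The sign of Dtna turned with WT LV replicate 2 kept (-0.14) and without E0del/+ LV replicate 3 (-0.17). With the replicate block Dmd was -0.0863, Sgca -0.0446, Sgcd -0.14 and Dtna -0.34, and with WT LV replicate 2 in place of WT LV replicate 1 they were -4.99e-04, -0.17, -0.0905 and -0.29. Without 1 E0del/+ library Utrn ran from -0.00519 to 0.0884, Dag1 from -0.45 to 0.0644, Sgcb from -0.22 to 0.0131, Dtna from -0.17 to 0.19, Sntb1 from -0.57 to -0.25, Sgcd from 0.0698 to 0.45, Dmd from 0.0156 to 0.31 and Sgca from 0.19 to 0.37. In SkM 1 gene was called with the replicate block, which changed no other call, and edgeR called 0 when any 1 library was left out. Sgcd was -0.0363 on total counts and -0.0221 with Xist as a block, where Sgcb was -0.0130 and Dtna -0.00456. Without 1 library Utrn ran from -0.18 to 1.34, Sgca from -0.48 to 0.21, Sgcb from -0.0742 to 0.0631, Sgcd from -0.54 to 0.99, Dtna from -0.0773 to 0.15, Sntb1 from 0.00246 to 2.06, Dag1 from 0.14 to 0.65 and Dmd from 0.10 to 0.36. The interaction called 2 genes by DESeq2, an alternative chosen after seeing the data, and 0 to 77 without 1 E0del/+ mouse. Of the 5 ratios, 3 had 1 direction in all mice, 2 with WT mouse 2 added and 3 to 5 without 1 mouse. Sntb1, at its lowest CPM of each tissue, rested on 29 counts in E0del/+ LV replicate 3 and on 50 in WT SkM replicate 2, which limits its precision.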
